A study of Rattus norvegicus with 10 samples.

Results

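Sem1 and 34 other genes of the proteasome were followed in rat thyroid cells in which the transcription factor FoxE1 had been silenced, to ask whether the mRNA of Sem1 was lower alone or together with the subunits it assembles with. The 35 genes were chosen by name, as the subunits of the 20S and 19S particles with their base chaperones, and Sem1 itself was selected on its lower ratios in these same arrays, so its values are given as a description without a test. Of the 35 genes, 34 had a probe through their transcript, which gave 36 probes of 30367 on the array and 34 genes of 15154 that were named. Sem1 and Psmd9 had 2 probes each, the other 32 genes had 1, and Psmd11 was not analysed here because no probe was matched to it. All 36 probes passed the filter on dim signals.

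PCCl3, a rat cell line of differentiated thyroid follicular cells, was compared in 3 conditions. The siFoxE1 PCCl3 had been transfected with 25 nM of a pool of siRNAs against rat FoxE1, the siScramble PCCl3 with 25 nM of a non-targeting pool, and the wt PCCl3 were left untreated, so that only the siScramble cells shared the transfection with the silenced cells. All conditions shared the same line and the same medium with serum and a hormone mixture that contains TSH, and RNA was taken 48 h after transfection. Each comparison, siFoxE1 vs siScramble and siFoxE1 vs wt, used 4 arrays with 1 culture per condition, siFoxE1 in Cy5 and the reference in Cy3, and 1 array with the pooled RNA of these 4 cultures and the dyes exchanged, so n is 4 cultures throughout. Both comparisons used the same siFoxE1 extracts and are therefore not independent of each other. In the study's drawing of the design the dyes are exchanged relative to the labels of the samples. With the labels, which were used here, Foxe1 was the lower channel on all 10 arrays.

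The proteasome degrades proteins that carry ubiquitin. Its barrel, the 20S core particle, consists of outer rings of alpha subunits that gate the entry and inner rings of beta subunits, some of which hold the proteolytic sites. The 19S regulatory particle caps the barrel: its base holds a ring of ATPases that unfold substrates, and its lid holds the deubiquitinase that removes the ubiquitin chain. Sem1, also known as Dss1 or Shfm1, is a very small acidic subunit of the lid that helps to hold the lid together during assembly. The same protein also sits in the TREX-2 complex, which acts in mRNA export, and binds BRCA2, which acts in DNA repair. Proteasome genes are known to be raised together by the transcription factor Nfe2l1 when proteasome activity is short.

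The sequence before the start of Sem1 is shown because Sem1 had the lowest ratios of these proteasome genes. A further reason is that FoxE1 is described as binding sites with the core AAACA. The gene lies at chr4:35638306-35658462 on the minus strand of the GRCr8 assembly in the RefSeq tables. The deposited files themselves give no genome coordinates. The 250 bases before its annotated start, chr4:35658463-35658712, read 5′ to 3′ on the strand of the gene, with AAACA in capitals:

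Sem1: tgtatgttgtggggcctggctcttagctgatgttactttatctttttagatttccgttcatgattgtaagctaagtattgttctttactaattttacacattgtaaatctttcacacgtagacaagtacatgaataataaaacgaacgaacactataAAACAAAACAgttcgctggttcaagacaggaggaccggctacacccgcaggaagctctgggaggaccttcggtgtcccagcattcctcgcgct

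The core was found 2 times, starting 93 and 88 bases before the start, in direct succession and on the strand of the gene. On either strand, AAACA was present in 47.0% of the 33469 promoter windows of the same length and in 12 of the 31 windows that the table holds for these genes (38.7%). Those 12 genes were Sem1, Psma1, Psma2, Psmb1, Psmb2, Psmb5, Psmc1, Psmd1, Adrm1, Psmd7, Psmd8 and Psmd11. The pair of TTGG, part of the site of nuclear factor I, followed after 5 to 30 bases by AAACA was present in 6.4% of all windows and in those of Psmb1 and Psmd7, 2 of 31, and this motif contains the first one by construction. TGACNNNGC, the core of the antioxidant response element that Nfe2l1 can bind, was present on either strand in 10.1% of all windows and in 7 of 31 (22.6%), namely those of Psma3, Psmb2, Psmb5, Psmb6, Psmd1, Psmd9 and Adrm1. These letter matches were not tied to any binding measurement.

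Foxe1, the silenced gene, fell by 0.78 ± 0.083 (standard error) on the log2 scale against siScramble, where limma gave it an adjusted p of 0.0201 over the 4 cultures, and by 0.84 ± 0.0767 against wt, with an adjusted p of 0.0389. The pools lay further from 0 than the cultures. Log2 ratios of the 4 individual arrays averaged -0.58 against siScramble and -0.53 against wt, while the pools read -0.98 and -1.16. All 8 thyroid follicular markers passed the filter on dim signals, whereas neither of the 2 markers of C cells, Calca and Chga, did. Slc26a4 was dim and passed against wt only through siFoxE1. There it was well above background on 5 arrays with siFoxE1 RNA but on 1 with wt RNA. Of the markers of fibroblasts, endothelial cells and leukocytes, 3 of 5, 1 of 3 and 2 of 3 were above background, and Pecam1, Tek and Ptprc were not. One of them, the macrophage gene Cd68, had a called difference, with a log2 fold change of -0.73 against siScramble that came from a value of -1.49 on the pooled array, its ratios in the 4 cultures being 0.00 to 0.10. Against wt Cd68 was at -0.10. Log2 ratios of all probes spread more widely on some arrays than on others, with an SD from 0.181 for siFoxE1 vs siScramble replicate 2 to 0.443 for siFoxE1 vs wt replicate 3. Replicate 3 and the pool of siFoxE1 vs siScramble were hybridized on a second slide, and the other 8 arrays on the first.

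Sem1 mRNA was lower in siFoxE1 PCCl3 on every array. A ratio is given as log2 of siFoxE1 over the reference, so values below 0 mean less mRNA in siFoxE1 PCCl3. At the brighter of its probes, which is printed in 10 spots on each array, the log2 ratio against siScramble was -0.91, -0.85, -1.15 and -0.88 for replicates 1 to 4 and -0.76 on the pooled array. Against wt it was -0.81, -0.76, -0.86 and -0.83 for the same replicates and -0.80 on the pooled array. None of the 10 ratios came near 0, and replicate 3 against siScramble, which lies on the second slide, was the lowest. The 4 individual arrays averaged -0.95 ± 0.14 (SD, n = 4) against siScramble and -0.82 ± 0.04 (SD, n = 4) against wt. Within an array the 10 spots differed by an SD of only 0.0355 to 0.0589.

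The fit, which gives equal weight to the mean of the individual arrays and to the dye-swapped pool, placed Sem1 1.81-fold below siScramble (log2 fold change -0.86, standard error 0.0764) and 1.75-fold below wt (log2 fold change -0.81, standard error 0.0645). The other probe of Sem1, which is designed on the same transcript and printed in 1 spot, read -0.70, -0.85, -0.93, -0.59 and, on the pool, -0.77 against siScramble. Against wt it read -0.54, -0.73, -0.63, -0.61 and, on the pool, -0.73. This probe was also below 0 on all 10 arrays but gave smaller sizes, with fitted log2 fold changes of -0.77 (1.71-fold lower) and -0.68 (1.60-fold lower). Both probes read the same extracts, so they are not independent replicates of the cells. Probe sequences were not used here, and whether either probe also reads near-identical copies was not tested.

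The levels behind these ratios can be set side by side within each probe. At the brighter probe the normalized log2 intensity in Cy3 was 13.25, 13.76, 13.45 and 13.38 in wt cultures 1 to 4 and 13.30, 13.86, 13.72 and 13.38 in siScramble cultures 1 to 4. In Cy5 the siFoxE1 extracts gave 12.383, 13.009, 12.563 and 12.497 on the arrays shared with siScramble and 12.435, 12.999, 12.587 and 12.544 on the arrays shared with wt. The highest siFoxE1 culture was thus below the lowest wt and siScramble cultures, and the same held at the other probe. Replicate 2 was the highest in all 3 conditions. The same extract measured on both arrays differed by at most 0.0518, whereas the distance from the lowest to the highest culture was 0.513 (wt), 0.562 (siScramble) and 0.595 (siFoxE1). On the individual arrays condition and dye go together, which the pooled arrays with exchanged dyes relieve: there the siFoxE1 pool read 12.83 against 13.59 for siScramble and 12.75 against 13.55 for wt.

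**Figure D1:**
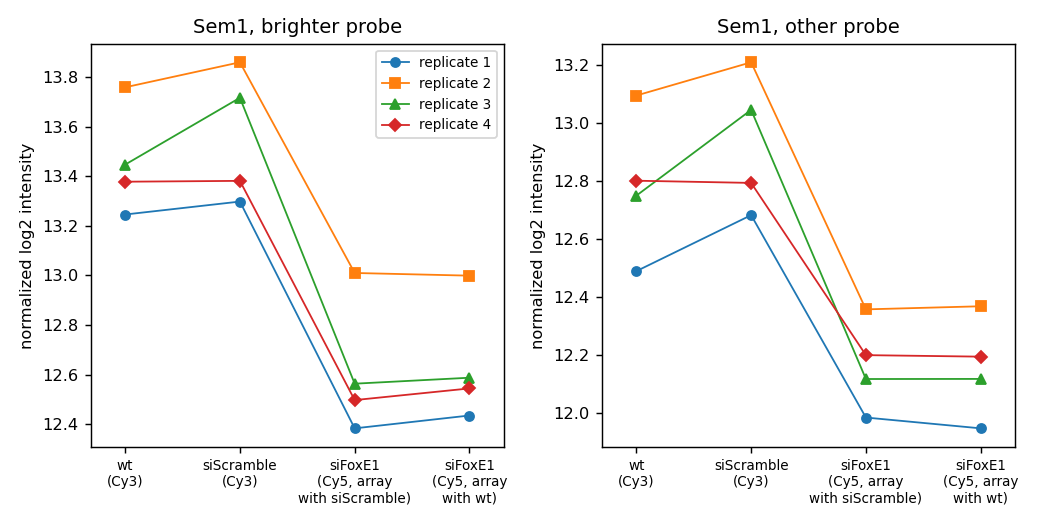
Normalized log2 intensity of Sem1 (vertical axis) in the 4 cultures of each condition, for its brighter probe on the left and its other probe on the right, with 1 line and marker shape per replicate number and the dye of each channel under the axis. In every replicate both siFoxE1 measurements lie below the wt and siScramble values, and the pair of measurements of 1 siFoxE1 extract differs by at most 0.0518 at the brighter probe.

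Among the other proteasome genes, none passed the test in either comparison. Of 34 probes for the 33 other genes, 0 had an adjusted p under 0.05 from limma against siScramble, beside 0.132% of the 18139 probes tested, and 0 against wt, beside 0.0594% of 18526. At an unadjusted p under 0.05, 3 of the 34 probes were lower against siScramble (both probes of Psmd9, and Psmd7) and 0 were higher, beside 7.53% and 6.78% of all probes. Against wt, 2 probes were lower (both of Psmd9) and 1 was higher (Psma7), beside 9.45% and 8.79% of all probes. The median log2 fold change of the 34 probes was 0.01 against siScramble and 0.04 against wt, and that of all tested probes was -0.01 in both. Below 0 on all 10 arrays were 3 of the 34 probes, again both of Psmd9 and that of Psmb6, beside 5.5% of all probes, and above 0 on all 10 arrays were none, beside 4.4%.

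The 95% intervals of the 34 probes came from limma's moderated variances. In the median they reached 0.152 to each side of the estimate on the log2 scale against siScramble and 0.181 against wt. Behind these variances are residuals of the individual arrays only, because the fit passes through the single pool exactly. The error of a pool was therefore not measured. The lowest lower bounds were -0.46 and -0.58, both for Psmd9. None of the 34 intervals reached down to the fitted value of either Sem1 probe in the same comparison. This comparison and the ranks that follow are descriptions without a test, because Sem1 was selected on its lower ratios in these arrays. On each of the 10 arrays Sem1 at both probes was the lowest of the 34 measured proteasome genes. The next lowest gene was Psmd9 on 5 arrays, Psmd7 on 2, and Psmb2, Psmc4 and Psmd13 on 1 each, with log2 ratios from -0.50 to -0.31.

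**Figure D2:**
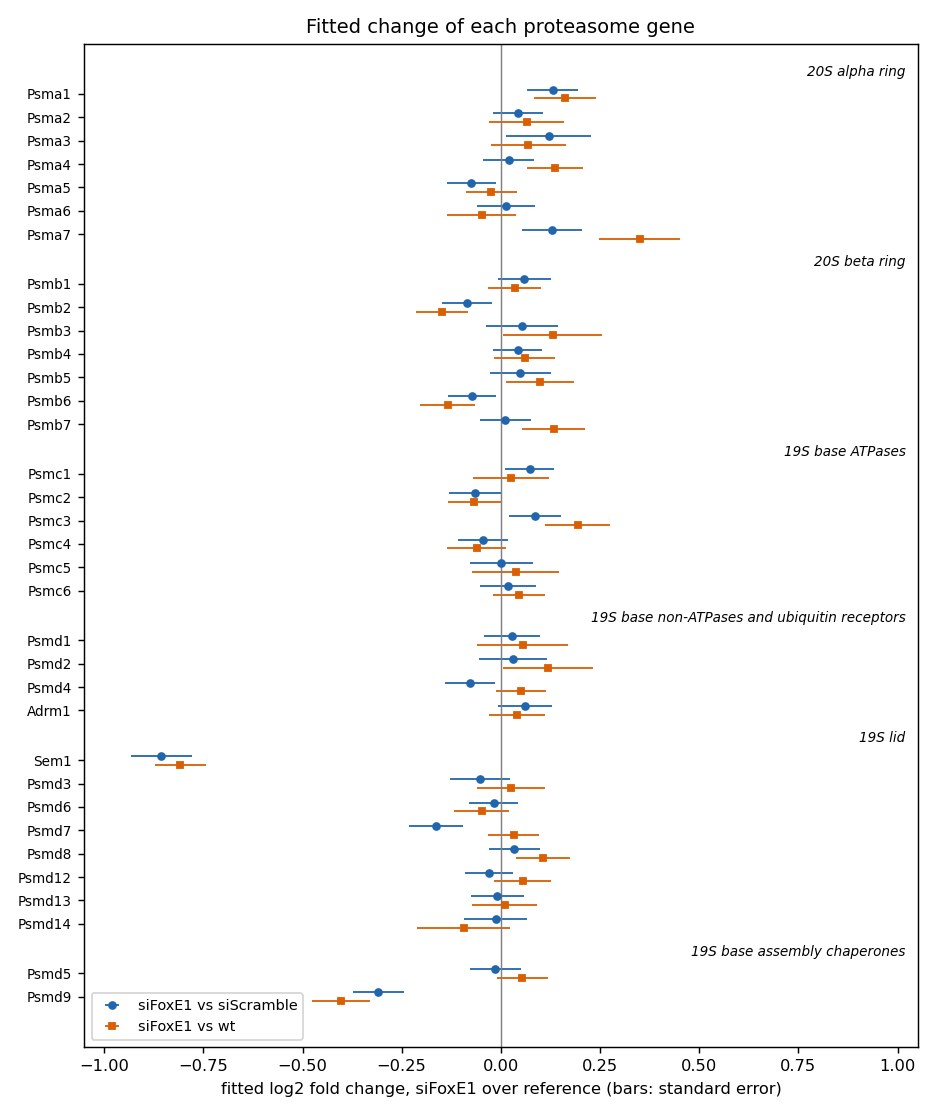
Fitted log2 fold change (horizontal axis) with its standard error for the brightest probe of each of the 34 measured genes, ordered by subcomplex, in siFoxE1 vs siScramble (blue circles) and siFoxE1 vs wt (orange squares). Sem1 stands at -0.86 and -0.81, Psmd9 at -0.31 and -0.40, and all other genes lie between -0.16 and 0.35.

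In the lid, the subcomplex of Sem1, the other 7 measured subunits had fitted log2 fold changes from -0.16 to 0.03 against siScramble and from -0.09 to 0.11 against wt, with medians of -0.02 and 0.03. Psmd14, the deubiquitinase of the lid, was at -0.01 and -0.09. Psmd3, Psmd8, Psmd12 and Psmd13, scaffold subunits of the lid, were at -0.05, 0.03, -0.03 and -0.01 against siScramble and at 0.03, 0.11, 0.05 and 0.01 against wt. Psmd6 stood at -0.02 and -0.05. None of these 6 subunits came within 0.5 of the log2 fold change of Sem1.

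Psmd7, which pairs with Psmd14 in the lid, had the lowest fitted value of the lid after Sem1 against siScramble, but not against wt. Against siScramble its log2 ratio was -0.32, -0.50, -0.42 and -0.29 on the individual arrays and 0.05 on the pooled array, and against wt it was -0.16, -0.14, -0.17 and -0.09 on the individual arrays and 0.20 on the pooled array. The sign on the individual arrays was thus opposite to that on the pool in both comparisons. The fit gave -0.16 against siScramble (standard error 0.0681, unadjusted p = 0.0455, adjusted p = 0.337 from limma, n = 4 cultures) and 0.03 against wt (adjusted p = 0.809).

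In the base, the 6 ATPases Psmc1 to Psmc6, which form the unfolding ring, had log2 fold changes from -0.06 to 0.09 against siScramble and from -0.07 to 0.19 against wt. Psmc3 was the highest of them, at 0.09 and 0.19 (adjusted p = 0.616 and 0.276 from limma). Its individual arrays averaged -0.01 and 0.00, and its pools read 0.18 and 0.39. Psmc2 and Psmc4 were below 0 in both comparisons, at -0.06 and -0.05 against siScramble and at -0.07 and -0.06 against wt, and Psmc1, Psmc5 and Psmc6 were above 0 in both. The large scaffold subunits Psmd1 and Psmd2 were at 0.03 and 0.03 against siScramble and at 0.05 and 0.12 against wt. Of the ubiquitin receptors, Psmd4 was at -0.08 and 0.05 and Adrm1 at 0.06 and 0.04. None of these 10 genes passed the test, and the lowest adjusted p among them was 0.276.

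In the 20S core, the 7 alpha subunits had a median log2 fold change of 0.04 against siScramble and 0.07 against wt, and the 7 beta subunits one of 0.04 and 0.06. The subunits that carry the proteolytic sites, Psmb5, Psmb6 and Psmb7, were at 0.05, -0.07 and 0.01 against siScramble and at 0.10, -0.13 and 0.13 against wt. Psmb6 was the one of these 14 genes with a ratio below 0 on all 10 arrays, from -0.12 to -0.01 against siScramble and from -0.19 to -0.02 against wt, and its adjusted p values were 0.648 and 0.341. The structural beta subunits Psmb1, Psmb3 and Psmb4 were above 0 in both comparisons, from 0.03 to 0.13. Psmb2, another of them, was at -0.08 and -0.15.

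Psma7, an alpha subunit of the gate, was the member with the highest fitted value against wt, while against siScramble Psma1 was (0.13). Against wt its log2 ratio was 0.27, 0.11, 0.57 and 0.52 on the individual arrays and 0.33 on the pool, all above 0, and the fitted value was 0.35 (1.27-fold higher, standard error 0.103, unadjusted p = 0.0126, adjusted p = 0.221 from limma, n = 4 cultures). Against siScramble it read 0.08, -0.04, 0.19, 0.28 and, on the pool, 0.13, and the fitted value was 0.13 (adjusted p = 0.496). The remaining alpha subunits Psma1 to Psma6 lay between -0.07 and 0.16 in both comparisons. For Psma1 against siScramble the individual arrays averaged -0.04 and the pool read 0.30.

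Psmd9, a chaperone that helps to assemble the base and is no part of the finished proteasome, was the other gene with lower ratios on all 10 arrays at both of its probes. At the brighter probe the log2 ratio against siScramble was -0.38, -0.20, -0.31 and -0.29 on the individual arrays and -0.32 on the pool. Against wt it was -0.33, -0.19, -0.43 and -0.36 on the individual arrays and -0.48 on the pool. The other probe gave -0.22, -0.11, -0.20, -0.20 and -0.27 against siScramble and -0.36, -0.15, -0.32, -0.21 and -0.13 against wt, in the same order. All 20 ratios were below 0, and the individual arrays had the same sign as the pool with exchanged dyes.

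The fitted log2 fold change of Psmd9 at the brighter probe was -0.31 against siScramble (1.24-fold lower, standard error 0.0648, unadjusted p = 0.00169, adjusted p = 0.16 from limma, n = 4 cultures) and -0.40 against wt (1.32-fold lower, standard error 0.0735, unadjusted p = 0.00116, adjusted p = 0.19). At the other probe it was -0.23 (adjusted p = 0.205) and -0.19 (adjusted p = 0.25). The difference thus failed the correction over all probes at both probes in both comparisons. In a fit of all 10 arrays with the replicate number as a block, the brighter probe had an adjusted p of 0.00713 against wt and of 0.0507 against siScramble, and Psma7 had one of 0.0221 against wt. Against wt this fit called 1678 of all probes (8.9%), where the fit of 5 arrays called 11. Psmd5, another chaperone of the base, was at -0.01 and 0.05.

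**Figure D3:**
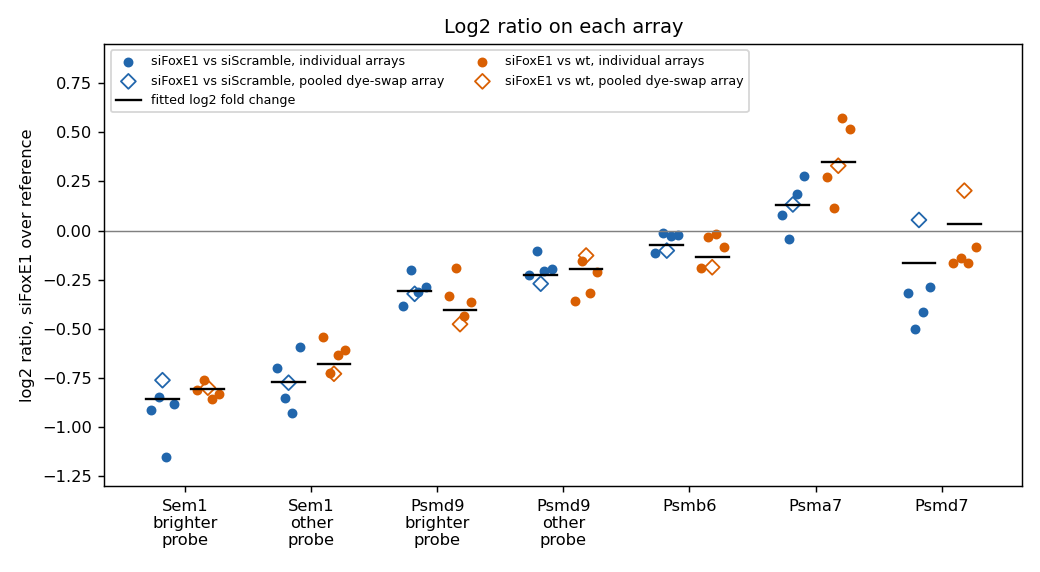
Log2 ratio of siFoxE1 over the reference (vertical axis) on each array for both probes of Sem1 and Psmd9 and for Psmb6, Psma7 and Psmd7, genes picked for the plot after their values were seen. Filled points are the 4 individual arrays, open diamonds the pooled arrays with exchanged dyes, black bars the fitted values, blue siFoxE1 vs siScramble and orange siFoxE1 vs wt. Sem1 lies between -1.15 and -0.54 and Psmd9 between -0.48 and -0.11, whereas Psmd7 has individual arrays below 0 and pools above 0.

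The median ratio of the proteasome genes was below 0 on 7 of the 8 individual arrays and above 0 on both pooled arrays. The median log2 ratio of the 34 probes other than Sem1 was -0.12, -0.11, -0.07 and -0.03 on individual arrays 1 to 4 against siScramble, and 0.10 on the pool. Against wt it was -0.17, -0.07, 0.02 and -0.09, and 0.15 on the pool. Below 0 were 31 of the 34 probes on replicate 1 against wt, 15 on replicate 3 against wt, and 7 on each of the pools. All-probe medians stayed between -0.02 and 0.00 on every array. The pools differ from the individual arrays both in the dye of siFoxE1 and in being pooled, so that dye and pooling cannot be told apart here.

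On the pooled arrays the medians of the alpha ring, the beta ring, the ATPases, the other base subunits and the lid without Sem1 were between 0.05 and 0.27. On replicate 1 the same medians were between -0.24 and -0.04 against siScramble and between -0.25 and -0.13 against wt. The chaperones, with Psmd9 holding 2 of 3 probes, had medians from -0.33 to -0.13 on all arrays. With the 4 individual arrays alone, that is without the exchanged dyes, the median of the 34 probes was -0.05 against siScramble and -0.06 against wt, and 4 probes passed the test against siScramble, those of Psmd7 (-0.38), Psmd9 (-0.30), Psmb2 (-0.26) and Psma5 (-0.25), while 0 passed against wt. That fit called 5.2% of all probes against siScramble and 2.25% against wt. In it Sem1 stood at -0.95 and -0.82.

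**Figure D4:**
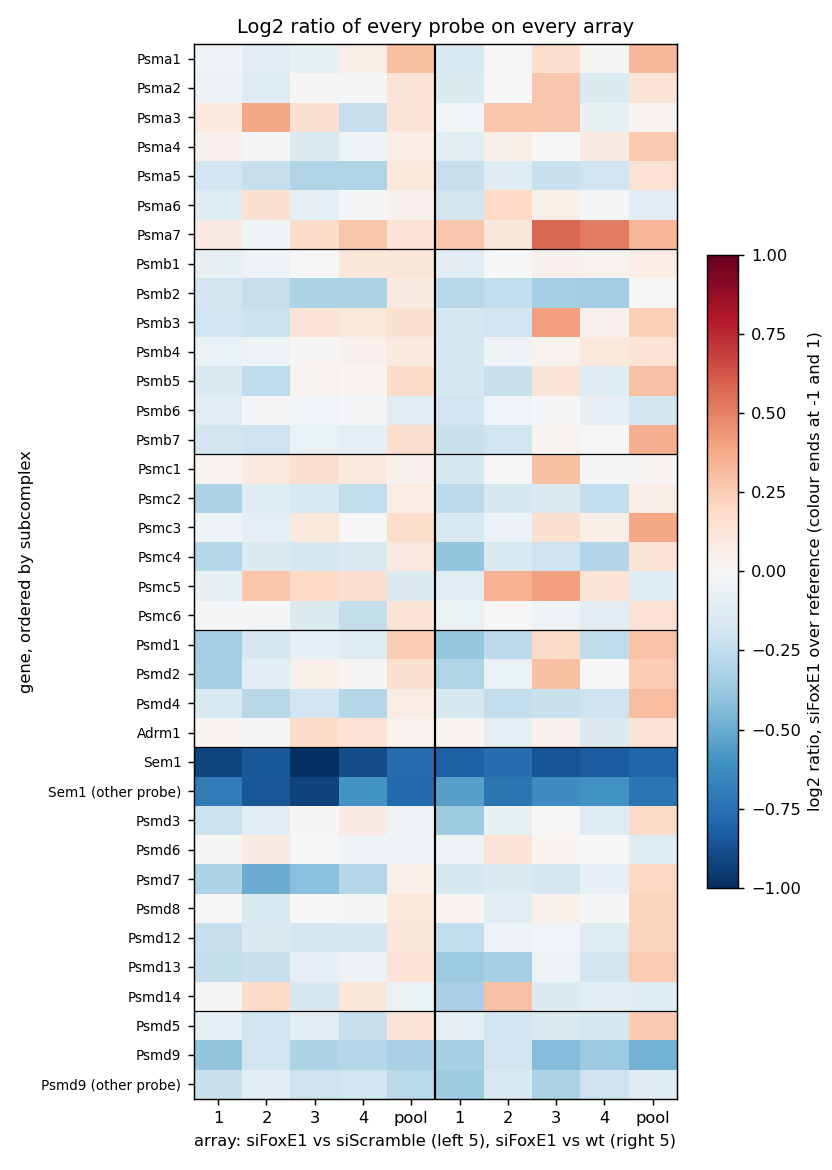
Log2 ratio of siFoxE1 over the reference for each of the 36 probes (rows, ordered by subcomplex with lines between them) on each of the 10 arrays (columns), blue below 0 and red above 0, with the colour ending at -1 and 1. Only Sem1 has ratios under -0.5 on all arrays, Psmd9 is light blue throughout, and many of the other rows are blue on individual arrays and red on the pools.

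Between siScramble and wt PCCl3 no proteasome gene passed the test. The arrays hold no direct hybridization of these cells, so the value is the difference of both comparisons in 1 fit of all 10 arrays. This fit had no replicate block, so arrays that shared a siFoxE1 extract were taken as independent, and its p values ignore that pairing. With the replicate number as a block, 0 of the 36 probes were called as well. Of the 36 probes, 0 had an adjusted p under 0.05 and 2 had an unadjusted p under 0.05 from limma, both higher in siScramble, beside 0% of all 18861 probes at the adjusted threshold and, at the unadjusted one, 1.34% lower and 2.4% higher. The lowest adjusted p of the 36 was 0.975. The log2 differences of siScramble over wt ranged from -0.10 to 0.23. Psma7 (0.23, unadjusted p = 0.0376) and Psmd7 (0.22, unadjusted p = 0.00463) were the highest of them, and Sem1 was at 0.10 and 0.12 at its probes. Psmd9 was at -0.06 and -0.03.

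Over the 4 wt cultures the 34 probes spanned a median of 0.363 log2 units, from 0.0679 to 0.842 for Psmd1, a scaffold of the base. Over siScramble and siFoxE1 cultures the median spans were 0.481 and 0.564. The same siFoxE1 extract on its arrays differed by a median of 0.0803 and at most 0.207, for Adrm1. The fitted difference of Sem1 was larger than its span in any condition at both probes. Besides Sem1, Psmb2 was the 1 gene whose siFoxE1 cultures all lay below the wt and siScramble cultures on the individual arrays. The share of all probes with such a separation was not computed, so how unusual it is cannot be said for either gene. On these arrays the log2 ratios of Psmb2 were -0.18, -0.23, -0.32 and -0.31 against siScramble and -0.28, -0.25, -0.34 and -0.35 against wt. Its pools, with exchanged dyes, read 0.09 and 0.00, so that its groups were apart only in 1 dye orientation.

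Related genes that were followed by list gave 0 calls as well. Of 53 such genes, 45 had a probe and 43 were above background, with 52 probes tested. None of the 52 had an adjusted p under 0.05 in either comparison, beside 0.132% of all probes against siScramble and 0.0594% against wt. At an unadjusted p under 0.05 from limma, 1 was lower and 2 were higher against siScramble, beside 7.53% and 6.78% of all probes. Against wt, 6 of 52 were lower and 6 of 52 higher, beside 9.45% and 8.79% of all probes. The median log2 fold change of the 52 probes was 0.00 against siScramble and 0.03 against wt.

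The partners of Sem1 outside the proteasome did not pass the test. In the TREX-2 complex, Mcm3ap, its scaffold, was at -0.02 against siScramble and -0.12 against wt, Pcid2, which binds Sem1 there, at -0.01 and -0.09, and Cetn3 at 0.00 and 0.00, while Eny2 was not well above background. Of the repair genes, Brca2 was at 0.09 and 0.26 and its partner Palb2 at 0.09 and 0.08, with adjusted p values of 0.366 or more. In the COP9 signalosome, a complex built like the lid, 10 of 10 genes were measured and their probes had a median of -0.03 and 0.03. Its small subunit Cops9 was at 0.23 and 0.41 (adjusted p = 0.428 and 0.387), Cops8 at -0.13 and -0.20, Cops2 at -0.16 and -0.13, and Cops5, its isopeptidase, at 0.08 and 0.10.

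Transcription factors that act on proteasome genes did not pass the test. Nfe2l1 was at 0.21 against siScramble (unadjusted p = 0.0192, adjusted p = 0.264 from limma, n = 4 cultures) and at 0.13 against wt, above 0 on 9 of 10 arrays. Nfe2l2 was at -0.19 and -0.37, below 0 on 9 of 10 arrays, and Ngly1, the glycanase that processes Nfe2l1, at -0.01 and 0.04. Of the factors that assemble the 20S core, Psmg2, Psmg4 and Pomp were at -0.01, 0.04 and -0.03 against siScramble and at -0.17, 0.04 and 0.01 against wt. Psmd10, another chaperone of the base, was at -0.10 and -0.20.

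Genes of the alternative proteasome forms did not pass the test. The interferon-induced catalytic subunits Psmb8, Psmb9 and Psmb10 were at 0.02, 0.15 and 0.13 against siScramble and at 0.18, 0.39 and 0.22 against wt. For Psmb9 the individual arrays averaged 0.01 against siScramble and 0.23 against wt, and the pools read 0.29 and 0.55. Psme1 and Psme2, which form the 11S cap that can replace the 19S particle, were at 0.24 and 0.15 against siScramble and at 0.52 and 0.39 against wt, with a lowest adjusted p of 0.218 for Psme1 against wt. Their values against siScramble came from the pools, at 0.47 and 0.29, as the individual arrays averaged 0.01 for each gene. Against wt the individual arrays averaged 0.28 for Psme1 and 0.32 for Psme2. The inhibitor Psmf1 was at 0.09 and 0.21, above 0 on all 10 arrays at the brighter probe. Psme3, the cap of nuclear proteasomes, was at -0.13 and -0.12.

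Genes that deliver or trim ubiquitinated substrates gave the largest values below 0 of these lists. Ufd1, a cofactor of the p97 segregase, was at -0.30 and -0.54, below 0 on 9 of 10 arrays, with adjusted p values of 0.264 and 0.218. Usp14, a deubiquitinase that docks on the 19S base, was at -0.23 and -0.47, below 0 on all 10 arrays, with adjusted p values of 0.419 and 0.226. The shuttle Ubqln1 was at -0.19 and -0.36 and p97 itself, Vcp, at -0.19 and -0.21. Of the genes that encode ubiquitin, Ubb was at -0.07 and -0.10 and Rps27a at -0.14 and -0.31. The values of Rps27a below 0 came from the pools, at -0.58 against siScramble and -0.83 against wt. Its individual arrays averaged 0.30 and 0.21, above 0. Rps27a and Ubb have near-identical copies in the genome, and which of them a probe reads was not checked here.

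The neighbours of Sem1 on chromosome 4 could be read in part. Dync1i1, a dynein subunit on the side of lower coordinates, had a dim probe with log2 fold changes of 0.03 and 0.12 (adjusted p = 0.87 and 0.514 from limma). Dlx5, a homeobox gene on the other side, was not well above background. Dlx6, Slc25a13, Sdhaf3 and Rpl31l14 were not analysed here, as no probe was matched to them.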

How the data were processed

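Arrays were Agilent rat arrays with 2 dyes. The authors quantified each scan with Feature Extraction 10.7.3.1, and the deposited intensity values are median brightness of spot and local background per dye, with processed signals that the software had corrected for background and dye. Other deposited columns hold marks per spot for signal well above background, outliers and saturation. The authors also deposited a table of normalized log2 ratios, made by loess within and quantiles between arrays, with limma 3.2.3 in the submitters' processing notes. It was used as an alternative, and its values for the pools needed no change of sign.

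Here the background of the median signals was removed by normexp (offset 50), and ratios were normalized by loess within and quantiles of the average intensity between arrays. The spots of a probe were averaged without control spots and without outlier spots (1.25 to 1.6% per array). limma 3.58.1 in R 4.3.3 was fitted to the 5 arrays of each comparison with a dye term, leaving 3 residual degrees of freedom. Benjamini-Hochberg adjustment ran over all tested probes. A probe was tested if well above background with siFoxE1 RNA, or with reference RNA, on 3 or more of the 5 arrays. Of 58717 spots, 56.8 to 60.3% passed this mark in Cy5 and 60.6 to 68.2% in Cy3, and none was saturated. Precision is limited by how few arrays there are. Called means an adjusted p under 0.05. A gene is given by its brightest tested probe, and 17998 of the 30367 probes were named through RefSeq transcripts. The genes named from related lists are up to 4 per list with the largest absolute mean of both log2 fold changes, beside all members, Foxe1 and the genes next to Sem1. Some genes that this rule names are not reported here. The members and lists were chosen with earlier results of these data known.

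Replicate numbers pair the samples, as 1 siFoxE1 extract served both arrays of a number. Across probes, the deviations of same-numbered arrays from their group means had r = 0.625, 0.751, 0.778 and 0.408, against -0.655 to 0.516 for different numbers. The fit was tested on simulated data with normal noise. Against siScramble it called 56% of changes of 0.5 log2 units and 90% of changes of 1. Against wt it called 26% and 82%. Alternatives covered background correction, normalization, filter, dye term, pooled array, replicates, slide, block, variance model, threshold and the authors' deposited values. Promoters are those of RefSeq, GRCr8. Tables and plots used Python 3.11.15, pandas 2.3.3, numpy 2.4.6, scipy 1.17.1 and matplotlib 3.10.9.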

Additional observations from a re-analysis of the deposited data

Results flagged for a closer look

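Among the 34 measured genes, each read in both comparisons over 4 individual arrays, 2 of 68 groups held an array far from the other 3, and chance alone gives such a gap in about 5% of groups. Psmb6, a proteolytic subunit of the 20S core, had a log2 ratio of -0.12 on replicate 1 against siScramble, while the other 3 arrays lay between -0.03 and -0.01. Psmd8, a lid subunit, had a log2 ratio of -0.15 on replicate 2 against siScramble, while the others lay between -0.01 and 0.01. Sem1 was not among them, although replicate 3 against siScramble, at -1.15, was its lowest array. No member passed the test of the difference between both comparisons, as siScramble over wt in 1 fit of all 10 arrays.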

How the results depend on the processing

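Sem1 was below its references under all 18 alternative settings run in each comparison. Leaving out 1 replicate number gave log2 fold changes of -0.87 to -0.82 against siScramble and of -0.82 to -0.80 against wt, and with the other probe of the gene it was -0.68 against wt, further from the value given than the spread between cultures. The count of other member probes that passed the test was 0 as reported. Without a dye term it was 1 against siScramble (Psmd9), beside 3.34% of all probes, and 2 against wt (Psma7 and Psmd9), beside 4.26%, and with the 4 individual arrays alone 4 against siScramble, beside 5.2%. In 1 fit of all 10 arrays without the replicate block it was 1 against siScramble (Psmd9), beside 0.594%, and 3 against wt (Psma7 and both probes of Psmd9), beside 10.3%. With the replicate block it was 2 against wt, beside 8.9%, with a slide term 2 against wt, beside 6.37%, in either case Psma7 and Psmd9, and on the first slide alone 1 against wt (Psmd9), beside 0.599%, while these 3 fits gave 0 against siScramble. Leaving out 1 replicate gave 0 in both comparisons and 0 for siScramble vs wt, as did each other setting. The adjusted p of the brighter Psmd9 probe thus crossed the threshold in 3 settings against siScramble and in 5 against wt, its sign was the same in all, and the cause was not tested. The median of the other member probes, 0.01 and 0.04, was -0.0374 against siScramble without a dye term, and -0.0526 and -0.0599 with the 4 individual arrays alone, where the exchanged dyes are missing. Leaving out 1 replicate gave 0.00 to 0.01 against siScramble and 0.03 to 0.05 against wt. Loess alone gives the same ratios as the reported setting, since quantiles of the average intensity leave ratios as they are. Quantiles over both channels were added after seeing the data and changed no count of member probes. Over all probes the counts of calls were far less stable, from 0 with the processed signals to 944 against siScramble and 1943 against wt, where the 11 reported became 0 without replicate 1 or 4 and 98 without replicate 3. With 4 cultures per condition, fitted values as large as those of Psmd9 (-0.31 and -0.40) and Psma7 (0.35 against wt) did not pass the adjusted test, so changes of that size in other subunits could have been missed.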
